A study of Mus musculus with 18 samples.

Results

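The genes of the cytosolic ribosomal proteins were described by the accessible chromatin regions found at them. Of the 22888 genes that the regions of the table overlap, 78 carried a symbol of the form Rpl or Rps followed by a number, with pseudogene copies (-ps) and the ribosomal S6 kinases (Rps6k) left out. They comprised 45 genes of the large subunit (Rpl) and 33 of the small subunit (Rps). The symbol also takes in 7 genes that are no standard part of the ribosome, namely the copies and relatives Rpl22l1, Rpl36al, Rpl37rt, Rpl7l1, Rps23rg1 and Rps27l and the gene of a binding protein, Rps19bp1. The 78 genes had 116 gene and region pairs, each at a different region.

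The regions came from ATAC-seq, in which a transposase inserts sequencing adapters into open DNA, of naive mouse CD4 T cells stimulated in culture with bead-bound antibodies to CD3 and CD28, IL-2, IL-12 and an antibody to IL-4, conditions that favour T helper 1 (Th1) cells. The 18 samples formed 6 groups of 3: Id3-KO and WT cells labelled Th1 at 24 h, and Id3-KO and WT cells labelled Tcmp or Teff at 72 h, labels that are used as given. All 6 groups shared the culture. The sources used here give neither the construction of the knockout nor the animal or culture behind each sample. Id3 is a protein that binds E proteins and keeps them from DNA, and the study compared chromatin between the genotypes.

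The table analysed repeats 65983 regions for 6 contrasts without values by sample, so the loss of Id3 could not be checked in the samples and depth is unknown. The regions and their gene annotation were identical in all 6 contrasts. What follows therefore describes 1 set of regions shared by the 6 groups and gives no difference between genotypes, cell labels or times. The deposited p-values followed the order of the rows in every contrast, while the order of the fold changes was not checked. Neither was read as belonging to any ribosomal protein gene. All 6 Th1 marker genes looked for (Cd3e, Cd4, Tbx21, Ifng, Il12rb2 and Cxcr3) overlapped a region, 5 of them at the promoter, with Tbx21 the exception. Among markers of other cells, Epcam had 1 region at the promoter, and Lyz2 and Hbb-bt had none. Presence in the list is therefore no measure of a gene's activity.

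A ribosome holds 1 copy of nearly every ribosomal protein, so cells make these proteins in matched amounts. Their genes are compact, they are transcribed at high levels in most cell types, and the growth of activated T cells depends on them. The mRNAs of many of them begin with a C followed by a run of pyrimidines, the terminal oligopyrimidine (TOP) tract, through which mTOR controls their translation. Several introns of these genes host small nucleolar RNAs (snoRNAs), which guide the modification of ribosomal RNA.

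RefSeq promoter windows, from 250 bases before to 50 bases after an annotated start in the build GRCm38.p6, were found for 60 of the 78 genes, 71 windows in all. The 18 without a window included Rpl3, Rpl8, Rps14 and Rps27a. With 76.9% of the genes matched, below the 80% set as the least for a check over the whole list, the shares below describe the matched windows only, and the check of GC content was void. Sequences are RefSeq's and are written 5′ to 3′ on the strand of the gene. Regions are in GRCm39, the build in the submitters' processing notes, and no coordinate was converted between the builds.

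A C at the annotated start followed by at least 4 pyrimidines was found in 12 of 71 windows (16.9%), against 2.51% of all 32851 windows and 2.34% of the 13187 windows of genes with a region over promoter and exon. None of the 74 windows of the mitochondrial ribosomal protein genes, whose products form the ribosome inside mitochondria, had it. These 12 windows belong to Rpl14, Rpl15, Rpl28, Rpl35, Rpl35a, Rpl38, Rps10, Rps15a, Rps18, Rps21, Rps27 and Rps6. A selection of 8, made after the tracts had been seen, is shown from 20 bases before to 20 bases from the start, with the pyrimidine tract that begins at the start in capitals:
Rpl14 (chr9:120571497-120571536, plus strand): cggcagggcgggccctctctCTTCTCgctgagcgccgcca
Rpl15 (chr14:18270967-18271006, minus strand): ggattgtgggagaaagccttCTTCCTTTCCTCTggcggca
Rpl28 (chr7:4792945-4792984, plus strand): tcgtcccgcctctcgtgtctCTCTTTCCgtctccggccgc
Rpl35 (chr2:39005112-39005151, minus strand): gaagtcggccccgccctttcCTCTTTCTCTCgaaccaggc
Rpl38 (chr11:114668560-114668599, plus strand): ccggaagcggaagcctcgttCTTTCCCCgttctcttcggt
Rps10 (chr17:27635225-27635264, minus strand): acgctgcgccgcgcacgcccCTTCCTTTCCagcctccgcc
Rps18 (chr17:33955646-33955685, minus strand): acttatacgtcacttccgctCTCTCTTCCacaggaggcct
Rps6 (chr4:86857348-86857387, minus strand): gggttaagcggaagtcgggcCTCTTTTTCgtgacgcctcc
The tract ran for 13 bases in Rpl15 and for 6 in Rpl14, and the other 6 shown had 8 to 11. Rps6 is the protein phosphorylated by the S6 kinases, and its tract of 9 bases was CTCTTTTTC. A looser criterion, a run of 8 pyrimidines within 25 bases of the start, was met by 32 of 71 windows (45.1%), against 19.7% of all windows and 23% of the mitochondrial ones.

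Motif letters were searched on both strands of the same windows. CCGGAAG, the core bound by ETS factors and GABP, was in 24 of 71 windows (33.8%, 23 genes), against 8.86% of all windows and 17.1% of those of genes with a region over promoter and exon. The mitochondrial ribosomal protein genes had it in 26 of 74 windows (35.1%). AAGATGG, read by YY1, was in 12 windows (16.9%, 10 genes), against 6.34% and 6.91%, and in 17.6% of the mitochondrial ones. GGGCGG, the SP1 box, was in 43 windows (60.6%), close to the 61.2% of genes with a region over promoter and exon and above the 35.7% of all windows. TATAAA, the TATA box, was in 6 windows (8.45%), against 13.6% and 7.09%. With 100 bases before the start in place of 250 it was in 7.04%, against 6.94% and 3.12%, so its standing against all windows depends on the window. CACGTG, the E-box read by MYC, was in 8 windows (11.3%), against 7.15% and 9.98%. In the shorter window the order turned, with 2.82% of the members' windows against 4.35% and 6.34%. CGCATGCG, read by NRF1, was in 3 windows (4.23%), against 1.87% and 3.61%. No matches of different motifs overlapped in the members' windows.

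Letters of the E protein sites, the sites of the factors that Id3 restrains, were fewer. CAGCTG was in 2 of 71 windows (2.82%), those of Rpl35 and Rpl6, against 16.3% of all windows, 15.3% of those of genes with a region over promoter and exon and 16.2% of the mitochondrial ones. CAGGTG was in 9 windows (12.7%, 8 genes), against 20.2%, 18.9% and 13.5%. A match is a string of letters and no binding was measured. No test was made of any of these differences, because the members are a list chosen by name.

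**Figure D1:**
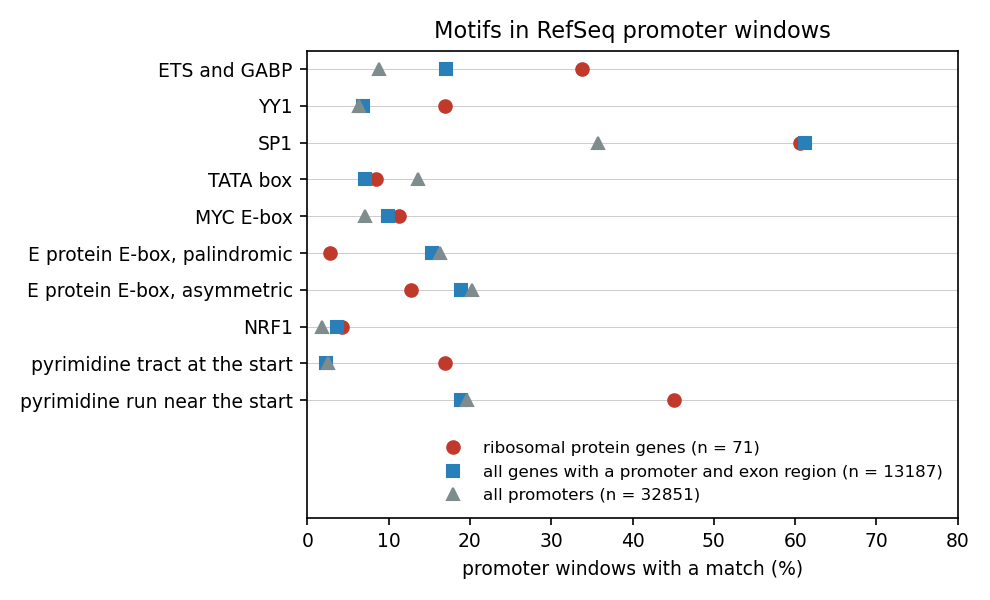
Share of RefSeq promoter windows (horizontal axis, percent) with a match to each motif (rows), for 71 windows of ribosomal protein genes, 13187 windows of all genes with a region over promoter and exon, and all 32851 windows. The ribosomal protein genes lie to the right for the ETS and GABP core (33.8%), YY1 (16.9%) and both pyrimidine criteria, and to the left for the palindromic E protein E-box (2.82%).

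Stretches of 120 bases, 100 before to 20 from the start, follow for the 3 genes with the widest and the 3 with the narrowest region over promoter and exon among those with a window, since width is the measure the table gives for every gene. Ties were broken by symbol. Rpl5, Rpl6, Rps23 and Rps7 were tied with Rpl38 at 800 bp, and Rpl37rt with the narrowest 3 at 550 bp. Motif matches are in capitals:
Rpl38 (chr11:114668480-114668599, plus strand): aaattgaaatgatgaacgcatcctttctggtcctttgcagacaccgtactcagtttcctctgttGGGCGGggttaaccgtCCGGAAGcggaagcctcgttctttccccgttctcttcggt
Rpl10 (chrX:74270716-74270835, plus strand): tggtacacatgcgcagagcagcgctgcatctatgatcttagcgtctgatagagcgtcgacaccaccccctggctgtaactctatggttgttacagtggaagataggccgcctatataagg
Rpl7l1 (chr17:46782637-46782756, minus strand): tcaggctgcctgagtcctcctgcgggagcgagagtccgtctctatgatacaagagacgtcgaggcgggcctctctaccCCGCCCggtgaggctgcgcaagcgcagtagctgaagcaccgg
Rpl19 (chr11:98026610-98026729, plus strand): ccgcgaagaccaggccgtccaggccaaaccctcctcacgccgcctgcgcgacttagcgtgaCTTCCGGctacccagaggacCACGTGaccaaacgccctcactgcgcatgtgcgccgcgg
Rpl13 (chr8:123102250-123102369, plus strand): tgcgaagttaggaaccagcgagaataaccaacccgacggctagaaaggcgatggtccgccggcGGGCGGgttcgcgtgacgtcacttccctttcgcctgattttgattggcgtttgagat
Rpl35a (chr16:33056353-33056472, plus strand): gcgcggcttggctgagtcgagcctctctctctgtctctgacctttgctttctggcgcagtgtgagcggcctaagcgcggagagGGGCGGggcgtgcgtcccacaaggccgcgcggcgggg
The region over promoter and exon was 850 bp wide at Rpl10 and Rpl7l1, 800 bp at Rpl38 and 550 bp at Rpl19, Rpl13 and Rpl35a. Rpl38 carried an SP1 box and an ETS core in this stretch, and Rpl19 an ETS core, on the other strand, and a MYC E-box. Rpl7l1, Rpl13 and Rpl35a had an SP1 box each, and Rpl10, a large-subunit protein added late in assembly, had none of the 8 motifs here. Rpl35a has 3 RefSeq windows, and the stretch shown belongs to another start than the one with the pyrimidine tract.

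All 78 genes (100%) had a region in the promoter class of the table (P), against 88.8% of all genes. In this table the class reached 3000 bp upstream of an exon, since all 6696 of 6696 regions that were promoter only and lay upstream of the gene's exon were within that distance. Of the 14822 protein-coding genes 91.1% had such a region, and of the 7896 genes no longer than the longest member (16779 bp from end to end in RefSeq) 92.9%. That member is Rps23rg1, no standard part of the ribosome, and the next longest is Rps15a at 11774 bp. With a median span of 3179 bp for the members, these short genes are capped in length and not matched to the members. The 77 mitochondrial ribosomal protein genes were also at 100%. The class alone therefore did not separate the cytosolic ribosome from the mitochondrial one.

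A region over both promoter and exon, the form a region over a start site takes, was present at 77 of 78 genes (98.7%), against 67.9% of all genes, 82.2% of protein-coding genes and 71.4% of the short genes. Mitochondrial ribosomal protein genes had it at 98.7%. The exception was Rps23rg1, a copy of Rps23 made by retrotransposition, with a single region of 500 bp, promoter only, 2740 bp upstream of the next exon. All 7 other genes of the cytosolic ribosome whose names the rule does not match (among them Rplp0, Rplp1 and Rplp2 of the stalk) had such a region. So did all 9 S6 kinase genes and 14 of 15 genes of translation factors and other TOP mRNAs.

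RefSeq lists 91 symbols that match the name rule, and 13 of them were not in the overlap column. Of these, 6 are pseudogenes (Rpl32p, Rpl6l, Rps12l1, Rps3a2, Rps3a3 and Rps4l). The 7 protein-coding ones were Rpl10l, Rpl32l, Rpl39l, Rpl3l, Rpl4, Rpl7 and Rps27rt. Rpl3l, the striated muscle counterpart of Rpl3, was listed only beside 2 regions, the nearest 34 bp downstream. Rpl4, a core protein of the large subunit, was listed beside 1 region 303 bp downstream, and Rpl7, another core protein, beside none. No region over these 2 genes was analysed here, which does not show that their promoters lack one. The share of 100% above holds for genes that the overlap column names. It would fall below 100% over all 91 symbols. The promoters of 2 symbols without a region, the testis copy Rpl10l and Rpl3l, are shown for contrast and were chosen after their values were seen, with motif matches in capitals:
Rpl10l (chr12:66284382-66284501, minus strand): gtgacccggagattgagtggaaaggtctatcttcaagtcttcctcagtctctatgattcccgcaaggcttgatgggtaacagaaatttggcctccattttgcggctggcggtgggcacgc
Rpl3l (chr17:24727726-24727845, plus strand): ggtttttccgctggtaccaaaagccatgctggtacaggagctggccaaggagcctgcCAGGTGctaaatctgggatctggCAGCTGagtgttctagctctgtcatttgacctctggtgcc
Rpl10l had none of the motifs in this stretch, and Rpl3l had both E protein letters, CAGGTG and CAGCTG in the same stretch.

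**Figure D2:**
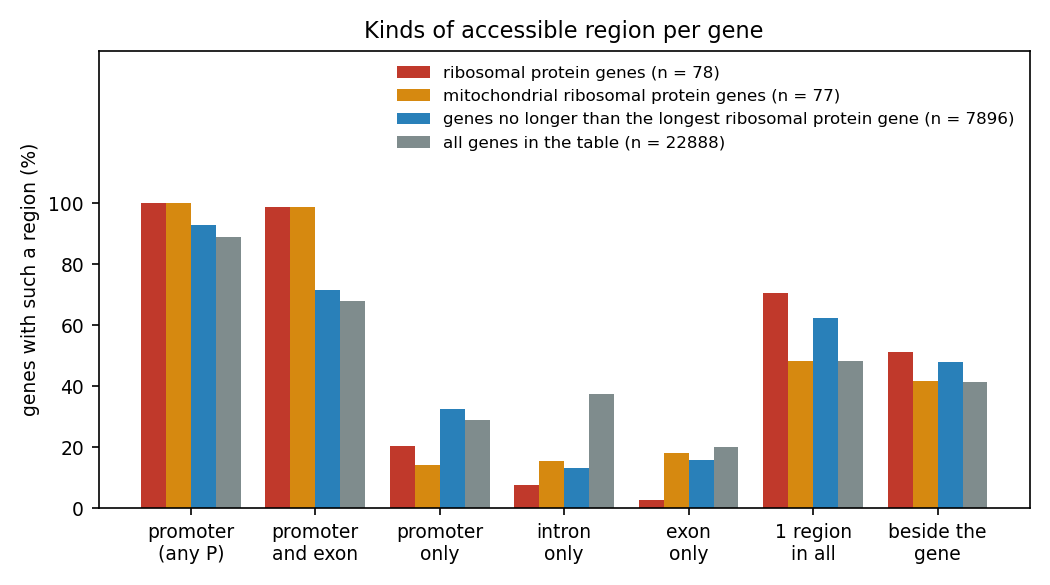
Share of genes (vertical axis, percent) with at least 1 region of each kind, for the 78 ribosomal protein genes, the 77 mitochondrial ribosomal protein genes, 7896 genes no longer than the longest ribosomal protein gene and all 22888 genes. The ribosomal protein genes are highest for a single overlapping region in all (70.5%) and lowest for intron-only (7.69%) and exon-only (2.56%) regions.

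Most ribosomal protein genes overlapped no further region, not counting regions beside the gene. A single region was found at 55 of 78 (70.5%), against 48.2% of all genes, 62.3% of short genes and 48.1% of mitochondrial ribosomal protein genes. A further 16 genes had 2 regions and 7 had 3 or more. The mean was 1.49 regions per gene, against 2.63 over all genes and 1.56 over the short genes. Gene length moves with this count, since the members' median RefSeq span was 3179 bp against 23794 bp for the protein-coding genes listed, and its part in the difference was not tested.

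Intronic regions were few. A region inside an intron, and outside promoter and exons of the gene, was present at 6 of 78 genes (7.69%), against 37.4% of all genes, 13.1% of short genes and 15.6% of mitochondrial ribosomal protein genes. The 6 genes were Rpl11, Rpl22, Rpl26, Rpl3, Rpl35 and Rps14, with 10 such regions, 6 of them at Rps14 and Rpl11. Exon regions away from the promoter were found at 2 genes (2.56%), Rpl22 and Rps19bp1, against 20.2% of all genes and 15.7% of short genes. Regions that were promoter only, with neither exon nor intron, were found at 16 genes (20.5%), against 29% of all genes, 19.1% of protein-coding genes, 32.6% of short genes and 14.3% of mitochondrial ribosomal protein genes. Of these 16 regions 15 lay 1736 to 2894 bp upstream of the next exon, with a median of 2343 bp. Rpl11 and Rps14 also had 1 region each over promoter and intron. Counted over pairs, 74.1% of the members' 116 pairs were promoter and exon and 8.62% intron only, against 30% and 43.7% of all 60157 pairs.

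The gene with the most regions was Rps14, a small-subunit protein whose human counterpart lies in the interval lost in 5q- syndrome. It had 8 regions of 300 to 700 bp spread over 30400 bp, of which 2 were promoter and exon and 4 intron only. Its RefSeq span is 3951 bp, so the regions cannot all lie inside the RefSeq gene, and the annotation of the table used a longer gene model. Rpl11, which with Rpl5 and 5S rRNA binds Mdm2, had 5 regions over 25100 bp, against a RefSeq span of 4040 bp. Here too 2 regions were promoter and exon, 650 bp and 450 bp wide, and 2 were intron only. The 6 intron-only regions of this pair of genes thus depend on the gene models.

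Rpl3, a protein near the peptidyl transferase centre, had 4 regions over 11250 bp (RefSeq span 5626 bp), 3 of them promoter and exon. Its regions too reach beyond the RefSeq length, so its intron region and its widest promoter region depend on the gene model. Rpl22, which is needed for normal development of alpha-beta T cells, had 3 regions over 7900 bp, less than the length of its RefSeq span, 9647 bp. They were a promoter and exon region of 650 bp, an intron region of 550 bp and an exon region of 650 bp. Its relative Rpl22l1 had 1 region of 700 bp. Rpl24 had 3 regions over 6700 bp, of which 2 were promoter and exon and 1 was promoter only, 2738 bp upstream.

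**Figure D3:**
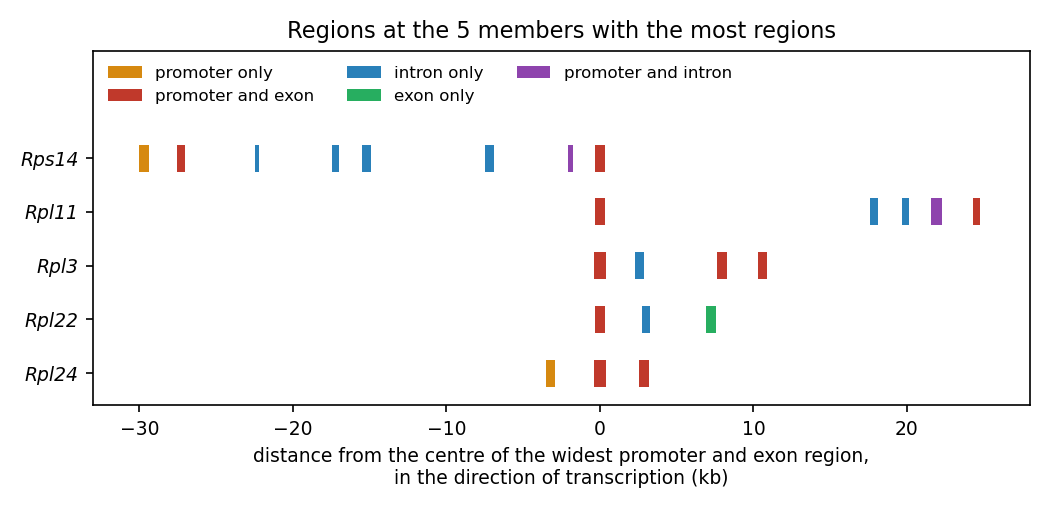
Regions at the 5 ribosomal protein genes with the most regions, drawn to scale as distance (kb) from the centre of the widest promoter and exon region in the direction of transcription, and coloured by kind. Rps14 and Rpl11 reach over 30400 and 25100 bp, while the regions of Rpl22 and Rpl24 stay within 7900 and 6700 bp.

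Width was then compared, taking for each gene its widest promoter-class region, which was a promoter and exon region at 72 members and another kind at 6. The median was 700 bp (quartiles 650 and 750 bp, range 500 to 850 bp) over the 78 genes, against 650 bp (550 and 700 bp, 300 to 1050 bp) over all genes. Widths move in steps of 50 bp, so the medians differ by 1 step. At 700 bp or more stood 42 of 78 genes (53.8%), against 34.2% of all genes with a promoter region, 39.6% of protein-coding genes and 34.7% of short genes. Mitochondrial ribosomal protein genes reached 64.9%, and all 7 other cytosolic ribosome genes were at 700 bp or more. Of the translation factor and other TOP genes 33.3% were that wide.

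Of the 78 genes 47 (60.3%) were 650 or 700 bp wide, against 37% of all genes and 42.9% of mitochondrial ribosomal protein genes. At 600 bp or less were 9 (11.5%), against 43.8% and 14.3%, and at 800 bp or more 10 (12.8%), against 10.5% and 23.4%. No member was under 500 bp. Large-subunit genes had a median of 700 bp and small-subunit genes 650 bp, with 57.8% and 48.5% at 700 bp or more. Each region is a run of tested windows, a window count that the table gives beside it. The median was 9 windows (range 5 to 12) against 8 over all genes. With the region over an exon or nearest to one in place of the widest, a choice made after seeing the data, the medians were 8 and 7. Width and window count carry nearly the same information, since 113 of the members' 116 regions had a width of exactly 250 bp plus 50 bp for each window. Over all regions 97.8% had that width, so exceptions were about as rare in the whole table. The members' exceptions, with fewer windows than their width would hold, were at Rpl38 (800 bp, 7 windows), Rpl7l1 (850 bp, 10 windows) and Rps19 (750 bp, 9 windows).

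The widest regions, 850 bp, lay at Rpl10 (chrX:73313651-73314500), Rpl21 (chr5:146769401-146770250), Rpl7l1 (chr17:47093351-47094200) and Rps27a (chr11:29497701-29498550), the last of which encodes ubiquitin fused to a ribosomal protein. Rpl38, known for its part in the translation of Hox mRNAs, Rpl5, Rpl6, Rpl8, Rps23 and Rps7 followed at 800 bp. The narrowest were Rps23rg1 at 500 bp, then Rpl13, Rpl36 and Rpl37rt at 550 bp and Rpl19, Rpl23a, Rpl32, Rpl7a and Rps25 at 600 bp. Among the copies and relatives, Rps27l, which p53 induces, and Rpl36al were at 650 bp, Rpl22l1 and Rps19bp1 at 700 bp. The copies and relatives lay at both ends of the range, from 500 bp at Rps23rg1 to 850 bp at Rpl7l1. No error can be given for a single width, as the regions were made once for the whole series.

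**Figure D4:**
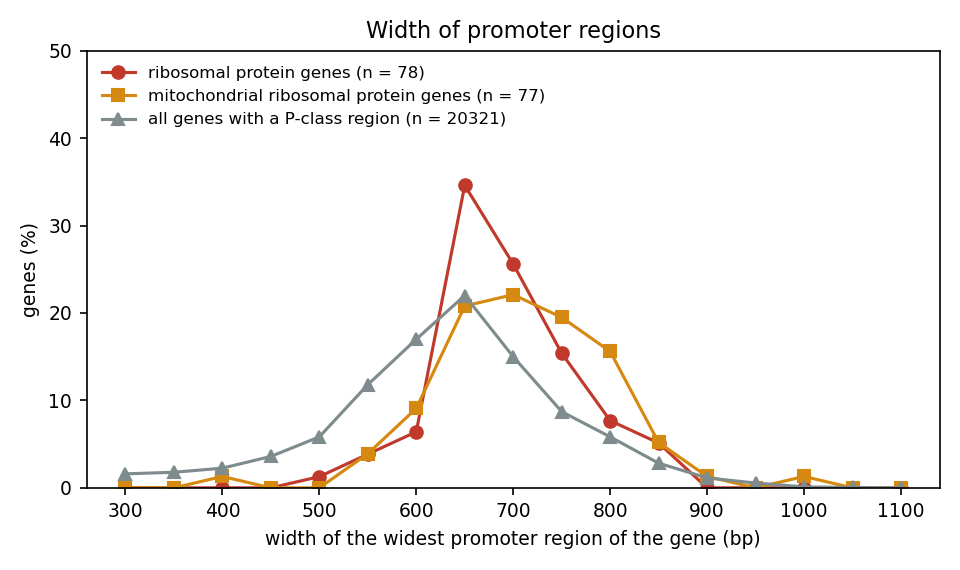
Share of genes (vertical axis, percent) by the width of the widest promoter-class region (horizontal axis, bp), for ribosomal protein genes (n = 78), mitochondrial ribosomal protein genes (n = 77) and all genes with such a region (n = 20321). Ribosomal protein genes peak at 650 and 700 bp (47 of 78 genes) and have none under 500 bp.

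The next exon came soon after the promoter region. The annotation gives, up to 5000 bp, the distance from a region to the nearest further exon of the gene. Downstream of the widest promoter and exon region an exon was listed at 75 of 77 genes (97.4%), against 62.9% over all genes. It was listed at 80.5% of short genes, 89.5% of mitochondrial ribosomal protein genes and all 7 other cytosolic ribosome genes. The members' exceptions were Rpl41 and Rpl3, whose widest region rests on the long gene model. At its narrower promoter and exon region Rpl41 had a next exon at 252 bp. The median distance was 212 bp (range 7 to 3964 bp) where listed, against 793 bp over all genes, 638 bp over short genes and 905 bp over mitochondrial ribosomal protein genes. Within 500 bp it was found at 54 of 77 genes (70.1%), against 24.9% of all genes, 35.5% of short genes and 25% of mitochondrial ones. The other cytosolic ribosome genes had a median of 257 bp and 5 of 7 within 500 bp.

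The shortest distances were at Rps25 (7 bp), Rps15 (9 bp), Rps20 (10 bp), Rps9 (13 bp) and Rps21 (14 bp). Within 100 bp were 24 of 77 genes (31.2%), against 8.66% of all genes, 11.7% of short genes and 13.2% of mitochondrial ones. Within 1000 bp were 89.6% of members, against 35.1% of all genes, 49.5% of short genes and 47.4% of mitochondrial ones. At 6 members the next exon was listed beyond 1000 bp. These were Rpl37rt (3964 bp), Rps24 (3349 bp), Rpl38 (2360 bp), Rpl31 (1681 bp), Rps16 (1102 bp) and Rps7 (1050 bp). The distance starts at the edge of the region, so a wider region leaves a shorter distance, and the exon inside the region need not be the first exon of the gene.

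**Figure D5:**
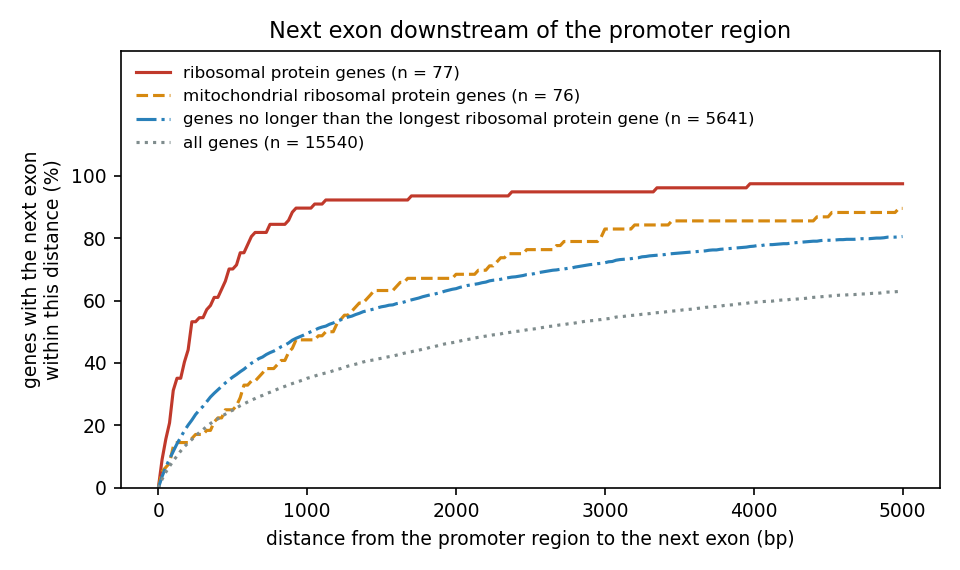
Cumulative share of genes (vertical axis, percent) whose next exon downstream of the widest promoter and exon region lies within a given distance (horizontal axis, bp), for 77 ribosomal protein genes, 76 mitochondrial ribosomal protein genes, 5641 short genes and all 15540 genes with such a region. The curve of the ribosomal protein genes passes 70.1% at 500 bp, where all genes are at 24.9%.

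Neighbouring genes at the promoter region were of 2 kinds. A protein-coding gene on the other strand with promoter and exon in the same region was found at 14 of 77 genes (18.2%), close to the 19.8% of all genes and below the 35.5% of mitochondrial ribosomal protein genes. The pairs were Rpl12 with Lrsam1, Rpl15 with Nkiras1, Rpl18 with Sphk2, Rpl3 with Syngr1, Rpl35 with Arpc5l, Rpl36al with Mgat2, Rpl7a with Med22 and Rpl9 with Lias in the large subunit. In the small subunit they were Rps18 with Vps52, Rps24 with Polr3a, Rps25 with Trappc4, Rps27 with Rab13, Rps27a with Clhc1 and Rps28 with Ndufa7. The pairing of Rpl3 rests on the same long gene model. Accessibility at these 14 regions cannot be assigned to 1 gene of the pair. Counting every kind of gene, the promoter and exon region of 49 of 77 members (63.6%) was also a promoter-class region of another gene, against 40.2% of all genes, 44.1% of short genes and 55.3% of mitochondrial ribosomal protein genes. The first 6 by symbol were Rpl10, Rpl10a, Rpl12, Rpl13, Rpl13a and Rpl15.

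The other kind was snoRNA genes. A snoRNA gene on the same strand had its promoter class on the member's promoter and exon region at 17 of 77 genes (22.1%), against 0.521% of all genes, 1.12% of short genes and 0% of mitochondrial ribosomal protein genes. Among the other TOP genes it was 3 of 14 (21.4%), and among the other cytosolic ribosome genes 3 of 7 (42.9%). The 17 genes held 25 snoRNAs. Rpl13a had the most, 4, while Rpl17 had 3 and Rps12 had 2. Because the promoter class reaches 3000 bp upstream, a snoRNA in an early intron can be assigned its host's promoter region, and such a region does not show a separate snoRNA promoter.

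Regions that lay beside a gene without overlapping it, within 5000 bp, were found at 40 of 78 genes (51.3%), against 41.3% of all genes and 47.9% of short genes. They were more often downstream, at 36 genes (46.2%), than upstream, at 9 (11.5%). Over all genes the shares were 32.9% and 14.1%. The upstream count is low by construction, since a region within 3000 bp upstream is already in the promoter class.

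The members lay on 19 chromosomes. Chromosome 7 held 13 of them, including Rpl13a, and chromosome X held 4 (Rpl10, Rpl36a, Rpl39 and Rps4x). The share of all genes on each chromosome is not given here, so these counts do not show clustering. All 4 genes on chromosome X had a promoter and exon region, of 700 to 850 bp.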

How the data were processed

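ATAC-seq of 18 samples was analysed as 1 table of the authors' own comparisons. The submitters' processing notes list Trim Galore, BWA, Picard, edgeR and the build GRCm39, with no version or role. Per the file headers the deposited table gives each region's width in bp, its number of tests (windows), a p-value and annotation to genes. The p-value column was used only for a check of row order. In all 6 contrasts the p of the best window (region p divided by windows) never fell along the table, among rows with a p below 1. The best window was the first in 395898 of 395898 rows. Fold changes were not used.

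Regions of 1 contrast were split into gene and region pairs with Python 3.11.15 and pandas 2.3.3. Gene kinds and spans came from RefSeq (GRCm38.p6), which matched 17414 of the 22888 genes by symbol (76.1%), so backgrounds by length or kind rest on matched genes. The widest promoter-class region stood for a gene. Named genes were those with an intron region, the 8 widest and 8 narrowest with their ties, the 5 with most regions, the paralogs and the first 6 that share a promoter region. Other names were chosen after values were seen, and some items are not reported here. The members and lists were chosen with earlier results of these data known. No test was made, since no value per sample was used. The parsing was tested on simulated annotation strings. Alternatives changed the members, the background, the region and the motif window.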

Additional observations from a re-analysis of the deposited data

How the results depend on the processing

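Of 30 values for the members under an alternative, 25 stayed within their tolerance (50 bp, 1 window, or the 95% binomial interval, which covers counting error only) and 5 moved. Some of the 25 could not move. With all members at 100% for the promoter class, any part of the list is also at 100%. A minimum of 2 windows changed nothing, since the members' widest promoter-class regions held at least 5. Flanking regions fell from 51.3% to 11.5% of members when only the upstream side was counted. With 100 bases before the start in place of 250, the SP1 box was in 46.5% of windows, the MYC E-box in 2.82%, CAGCTG in 0% and CAGGTG in 4.23%, against 28.8%, 4.35%, 9.4% and 10.5% of all windows. The MYC E-box thus turned from above to below all windows, and the cause was not tested. Backgrounds moved in 8 of 12 cases, each by a change of which genes or regions are counted, with the share of all genes with a promoter-class region ranging from 67.9% (promoter and exon only, chosen after seeing the data) to 92.9%. Criteria that need a RefSeq start inside or nearest to a region were not run, because RefSeq and the regions are in different builds. The region over an exon or nearest to one, chosen after seeing the data, gave a median width of 675 bp. Over all genes the same choice gave 650 bp, while the widest region gave 700 bp for members and 650 bp for all genes. The tolerances for width and window count equal the differences between members and all genes. Staying within them therefore does not show that these differences hold. Rps23rg1 was left out with the other copies in the reduced list of 71 genes. No paired analysis was possible because values by sample were not in hand, and for the same reason no replicate could be left out. The gene models of the annotation, which at Rps14, Rpl11 and Rpl3 exceed RefSeq's, limit the counts of intron regions.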
